A study of Mus musculus with 19 samples.

Results

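The genes described here encode the enzymes and regulators of cholesterol and fatty acid synthesis, measured in the cerebral cortex of fetal mice whose supply of thyroid hormone had been altered. The set was defined as a list of 35 gene symbols, and every probe set of the array that the deposited annotation assigns to one of these symbols was taken as a member. All 35 genes were found, through 83 of the 45037 probe sets that are not array controls. In all, 20408 genes are named on the array. RNA from the cortex of 1 fetus was hybridised to each of 19 Affymetrix arrays, and the fetuses came from wild-type C57BL/6 dams and were taken on gestational day 16. From day 13 all dams drank water with 2% sucrose, and 12 h before the end each was injected once under the skin. Controls (5 arrays) drank this water alone and were injected with saline. The hypo group (5 arrays) had saline and water that also held 1% perchlorate and 0.025% methimazole, goitrogens that block the thyroid gland. The hypo+ group (5 arrays) had the same goitrogen water and was injected with 25 µg of thyroxine (T4) and 2.5 µg of triiodothyronine (T3) for every 100 g of body weight, a dose chosen to bring hormone back to a normal level. The hyper group (4 arrays) had no goitrogen, and its injection held 100 µg of T4 and 10 µg of T3 for the same weight. Some labels name the goitrogen as propylthiouracil instead, and hormone levels were not analysed here. The comparisons ask how lack of hormone, excess of hormone and hormone given after goitrogen act on the fetal cortex.

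Cells build cholesterol from acetyl-CoA. A first set of enzymes makes isoprenoid units through mevalonate, and a second set joins these into squalene, closes the ring to lanosterol and trims it to cholesterol. The sterol regulatory element binding proteins (SREBP) switch on these genes when sterol is scarce: Scap carries SREBP to the Golgi, where it is released as an active transcription factor, and the Insig proteins hold Scap back when sterol is plentiful. Fatty acids are also built from acetyl-CoA and are then lengthened and desaturated. The fetal brain makes most of its own cholesterol, since lipoprotein cholesterol crosses the blood-brain barrier poorly, and in adult liver thyroid hormone is known to raise several genes of both pathways.

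Signals are given on the linear scale of the deposited table, and changes as differences of log2(signal + 32) between group means with their standard error (SE). The test was limma, with Benjamini-Hochberg adjustment over all 45037 probe sets and an adjusted p of 0.05 as the threshold. Array medians lay between 73.1 and 106.0. The labels do not say for each array whether its dam was shared, and the p-values reflect only how much these fetuses varied. Replicate 1 of hypo+ and replicate 4 of hyper carried transcripts of the Y chromosome although all fetuses are described as female. The Y-linked Ddx3y lay between 546.7 and 695.9 there, whereas its highest signal among the other 17 was 11.3. Xist, which is transcribed in female cells, lay between 68.8 and 97.2 on these 2 arrays and between 3145.1 and 8226.4 on the other 17. By both transcripts these 2 arrays read as male. All 9 cerebral cortex markers were called present by the authors. Klf9, a direct target gene of thyroid hormone receptors, rose in hyper from 130.1 in controls to 555.9 (log2 change 1.84 ± 0.13, adjusted p = 8.49e-07). Its value was 148.0 in hypo and 175.4 in hypo+, and these groups did not differ past the threshold (0.2 ± 0.12, adjusted p = 0.455). A dimmer Klf9 probe set did pass in hypo+ against hypo, from 39.7 to 76.0 (0.6 ± 0.14, adjusted p = 0.0283). Of the 83 member probe sets 72 were called present, and every member gene had at least 1 of these.

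Acat2 differed most clearly between groups, on its brighter probe set. There its signal was higher on every array that had received hormone, in hypo+ and in hyper, than on every hypo array. Beyond Acat2, few members passed the threshold. Ebp was higher in hyper than in hypo, Msmo1, Acly and Sc5d were lower in hypo+ than in control, and Acly was also lower in hypo+ than in hypo. No member passed in hypo against control or in hyper against control. More members were lower than higher in hypo against control, most of them enzymes of cholesterol synthesis, by small amounts of which none passed. The plot of the 83 log2 changes shows how far the members lay from 0 in each comparison.

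**Figure D1:**
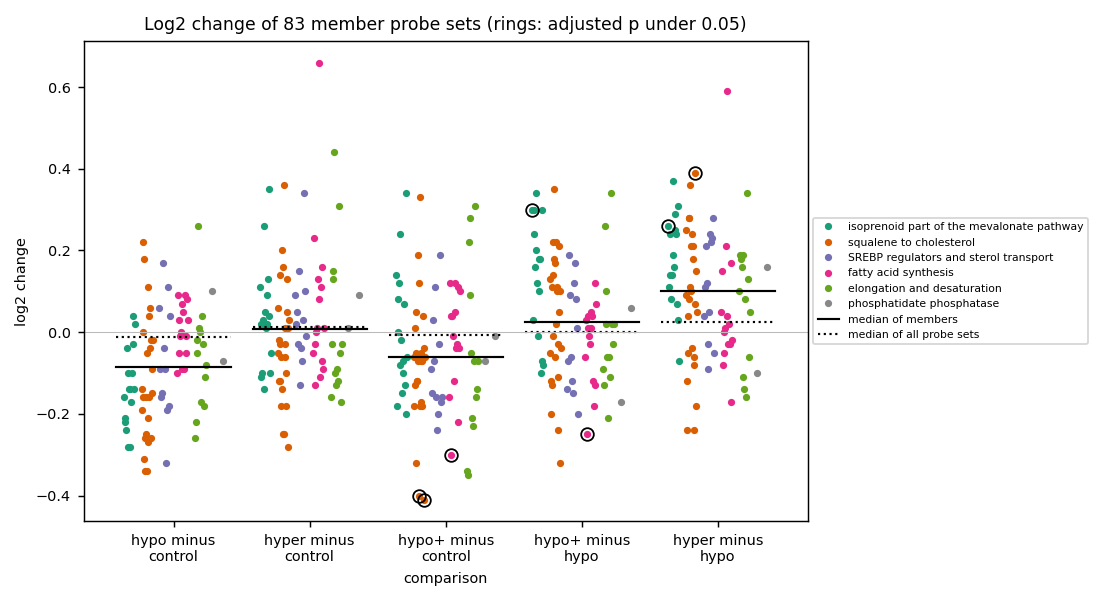
Log2 change of each of the 83 member probe sets (vertical axis) in 5 comparisons (horizontal axis), coloured by the role of the gene, with rings around probe sets of adjusted p under 0.05, a solid line at the members' median and a dotted line at the median of all 45037 probe sets. In hypo minus control the members' median was −0.085 and that of all probe sets −0.012, and in hyper minus hypo the medians were 0.1 and 0.024.

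The promoters of 4 enzymes on which the results turn are shown first, because the sterol-responsive transcription of this pathway acts through promoter sequence. Acat2 passed against hypo in both hormone-treated groups, and Ebp in hyper alone. Hmgcs1 is the classical sterol-regulated gene of the pathway, and Msmo1 was lower in hypo+ than in control. Of the 35 members, 28 had a promoter in the RefSeq table of build GRCm38.p6, with windows from 250 bases before to 50 bases after the start of the gene. The 250 bases before the start are printed 5′ to 3′ on the strand of the gene. Capitals mark matches on either strand to TCACNCCAC, the core letters of a sterol regulatory element, to CCAAT, the box bound by the cofactor NF-Y (ATTGG when on the other strand), and to AGGTCA, the letters bound by 1 partner of a thyroid hormone receptor pair (TGACCT on the other strand). No matches overlapped in these 4 promoters.
Acat2, chr17:12960726-12960975, minus strand: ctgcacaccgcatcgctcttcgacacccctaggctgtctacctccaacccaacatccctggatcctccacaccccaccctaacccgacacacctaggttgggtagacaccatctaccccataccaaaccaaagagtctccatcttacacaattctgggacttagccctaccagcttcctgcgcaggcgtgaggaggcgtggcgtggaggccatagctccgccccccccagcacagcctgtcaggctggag
Hmgcs1, chr13:119690101-119690350, plus strand: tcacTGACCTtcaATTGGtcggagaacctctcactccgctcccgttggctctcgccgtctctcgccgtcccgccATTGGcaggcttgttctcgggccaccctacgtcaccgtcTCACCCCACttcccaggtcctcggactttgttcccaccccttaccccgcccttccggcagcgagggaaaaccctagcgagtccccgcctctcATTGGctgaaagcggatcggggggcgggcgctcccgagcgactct
Msmo1, chr8:64733579-64733828, minus strand: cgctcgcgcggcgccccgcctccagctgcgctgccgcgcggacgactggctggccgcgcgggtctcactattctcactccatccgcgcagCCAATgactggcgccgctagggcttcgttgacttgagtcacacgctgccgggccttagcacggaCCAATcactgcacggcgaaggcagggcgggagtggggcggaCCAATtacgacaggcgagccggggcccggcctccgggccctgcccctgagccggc
Ebp, chrX:8193513-8193762, minus strand: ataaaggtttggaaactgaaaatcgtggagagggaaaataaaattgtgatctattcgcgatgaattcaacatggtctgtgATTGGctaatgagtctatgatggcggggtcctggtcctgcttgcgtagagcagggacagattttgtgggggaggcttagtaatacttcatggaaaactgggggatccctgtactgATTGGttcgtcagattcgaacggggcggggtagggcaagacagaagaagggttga

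Only Hmgcs1 among the 28 matched members held TCACNCCAC, with its first base at position −137 from the start. These letters occur in 1.44% of all 27025 genes with a window. Counted by window they occur in 2.7% of 37 member windows and 1.24% of all 32851. CCAAT was found in 22 of the 28 member genes, against 41.1% of all 27025 genes with a window. Msmo1 held it 3 times, Ebp 2 times and Hmgcs1 4 times, the last at position 10 after the start, whereas Acat2 held none. AGGTCA was found in 6 of the 28 genes, which were Hmgcs1, Dhcr7, Insig1, Acly, Elovl6 and Lpin1, against 18.1% of all genes. A match says only that the letters are there, and elements spelled with other letters were not searched for.

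In hypo against control, the question is what 3 days of goitrogen did to these genes. None of the 83 member probe sets passed, and none of all probe sets did (0.0%). At an unadjusted p under 0.05, 21 member probe sets of 14 genes were lower (25.3%, against 5.81% of all probe sets) and 0 were higher (against 2.38%), where 8.19% of all differed in either direction. On 5 member probe sets (6.02%) every hypo array lay below every control array, against 0.895% of all, and on 0 did every hypo array lie above (against 0.384%). Of the 83, 60 had a value below 0 (72.3%, against 55.1% of all), and the median was −0.085 where that of all probe sets was −0.012. Over present probe sets alone 17 were lower at an unadjusted p under 0.05 (23.6%, against 6.98%). Over those with a mean signal of at least 100, 17 were lower (25.4%, against 8.87%). These values are not independent of each other, since members share arrays and vary together.

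By role, values in hypo were lowest at the median in the 2 groups of cholesterol enzymes, and differences between roles were not tested. The 16 probe sets of the isoprenoid steps had a median of −0.142, with 14 below 0, and the 25 from squalene to cholesterol had a median of −0.145, with 20 below 0. The 12 probe sets of the SREBP regulators and the sterol carrier Stard4 had a median of −0.09. The 15 probe sets of fatty acid synthesis lay at −0.001. The 13 of elongation and desaturation lay at −0.047 with 9 below 0, and 3 of them were among the 21 lower ones: Elovl6 with −0.26 and −0.22 and Fads2 with −0.18.

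The members of smallest p in this comparison all belong to the cholesterol steps. Cyp51, the lanosterol demethylase, read 1084.0, 937.9, 1153.7, 1005.4 and 1061.3 on the control arrays and 655.0, 800.2, 864.6, 810.3 and 1004.0 on the hypo arrays. Replicate 5 of hypo lay above the lowest control, so the groups overlapped. Its log2 change was −0.34 ± 0.09 (adjusted p = 0.302 by limma). Its other probe sets had values of −0.16 and −0.25.

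Msmo1, the oxidase that removes methyl groups from the sterol ring, read 1590.7, 1168.1, 1349.0, 1166.5 and 1206.3 in controls and 855.5, 1007.2, 1134.3, 932.8 and 1143.2 in hypo. Every hypo array lay below every control array. The log2 change was −0.34 ± 0.10 (adjusted p = 0.356). Ebp, the sterol isomerase, had −0.26 ± 0.08 (adjusted p = 0.356), with means of 295.2 in hypo and 360.2 in controls and overlapping arrays. A probe set of Nsdhl, a sterol dehydrogenase, that was called absent had −0.27 ± 0.07 (adjusted p = 0.311).

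Hmgcs1 is the synthase that makes HMG-CoA early in the mevalonate pathway. Its brightest probe set, which also lists a predicted gene, read 7010.3, 5574.1, 5984.6, 5683.6 and 7217.5 in controls and 4083.3, 5683.0, 5479.2, 5761.4 and 6065.9 in hypo. The groups overlapped, with replicate 1 of hypo the lowest of all 19 arrays. The log2 change was −0.22. On a second probe set of Hmgcs1 every hypo array lay below every control array, with means of 2106.4 and 2564.0 and a log2 change of −0.28 ± 0.08 (adjusted p = 0.356).

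Sqle, squalene epoxidase, read 2392.4, 2499.7, 2743.7, 2554.0 and 2727.8 in controls and 1794.3, 2767.3, 2227.8, 2539.8 and 2347.1 in hypo. The highest hypo array lay above every control array and the lowest below every one, and the log2 change was −0.16. Pmvk, which phosphorylates mevalonate phosphate, had −0.28, with every hypo array below every control array (adjusted p = 0.356). Fdft1, squalene synthase, had −0.19 and −0.14 on its bright probe sets, and Dhcr7, which catalyses the last step to cholesterol, −0.02.

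Replicate 1 of hypo stood apart in these genes. Across the 36 probe sets of cholesterol enzymes called present it read lowest of the 19 arrays in 13 (36.1%), and across all 72 present member probe sets in 17 (23.6%), where its share of all 28420 present probe sets was 9.77%. Replicate 5 of hypo read lowest in 9 of the 36 (25.0%, against 7.27% of all present probe sets). Without replicate 1 of hypo, 15 member probe sets were lower at an unadjusted p under 0.05 (18.1%, against 5.11% of all) and 0 were higher, with a median of −0.062. Without it and replicate 2 of control, which read lowest in 16.7% of the present member probe sets and 17% of all, 19 were lower (22.9%, against 8.13%).

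**Figure D2:**
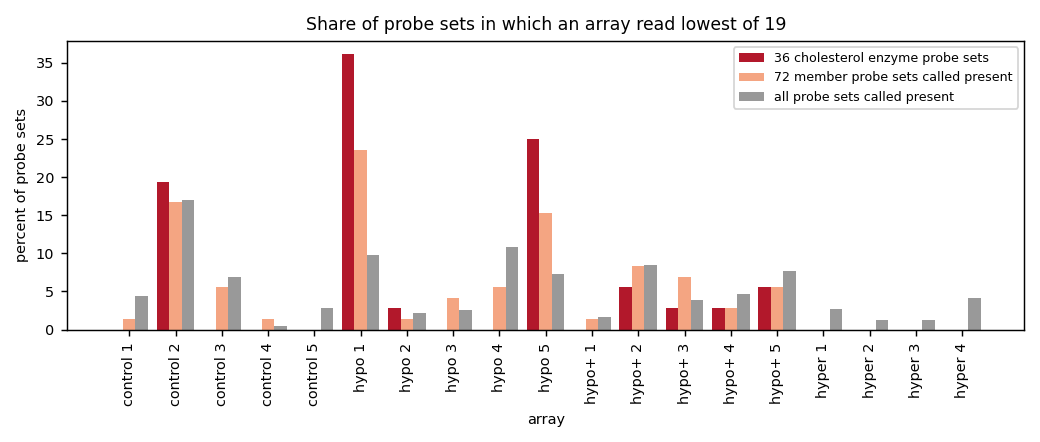
Percent of probe sets (vertical axis) in which each of the 19 arrays (horizontal axis) read lowest, for the 36 present probe sets of cholesterol enzymes, all 72 present member probe sets and all 28420 present probe sets. Replicates 1 and 5 of hypo read lowest in 36.1% and 25.0% of the cholesterol enzyme probe sets, and no hyper array did in any.

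The summed signal of the astrocyte and radial glia markers, of which 4 of 6 were called present and none was at 0, lay between 12482 and 14218 in hypo and between 14722 and 15422 in control, with no overlap. Their 17 probe sets had a median change of −0.008, with 8 above 0, and in hyper the sum lay between 12302 and 14642, also below every control. The striatum and ganglionic eminence markers had a median of −0.195 in hypo against control, with 12 of 12 probe sets below 0. The choroid plexus markers had the largest median of the marker lists in this comparison, 0.476, with 9 of 11 probe sets above 0. Against control they had 0.363 in hyper and 0.442 in hypo+, and none of their probe sets passed. The meninges markers had 0.112 in hypo against control, with 9 of 10 above 0. The part of any of these lists in the lower cholesterol gene values was not tested. In tissue RNA, fewer cells of a type and less RNA per cell cannot be told apart.

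**Figure D3:**
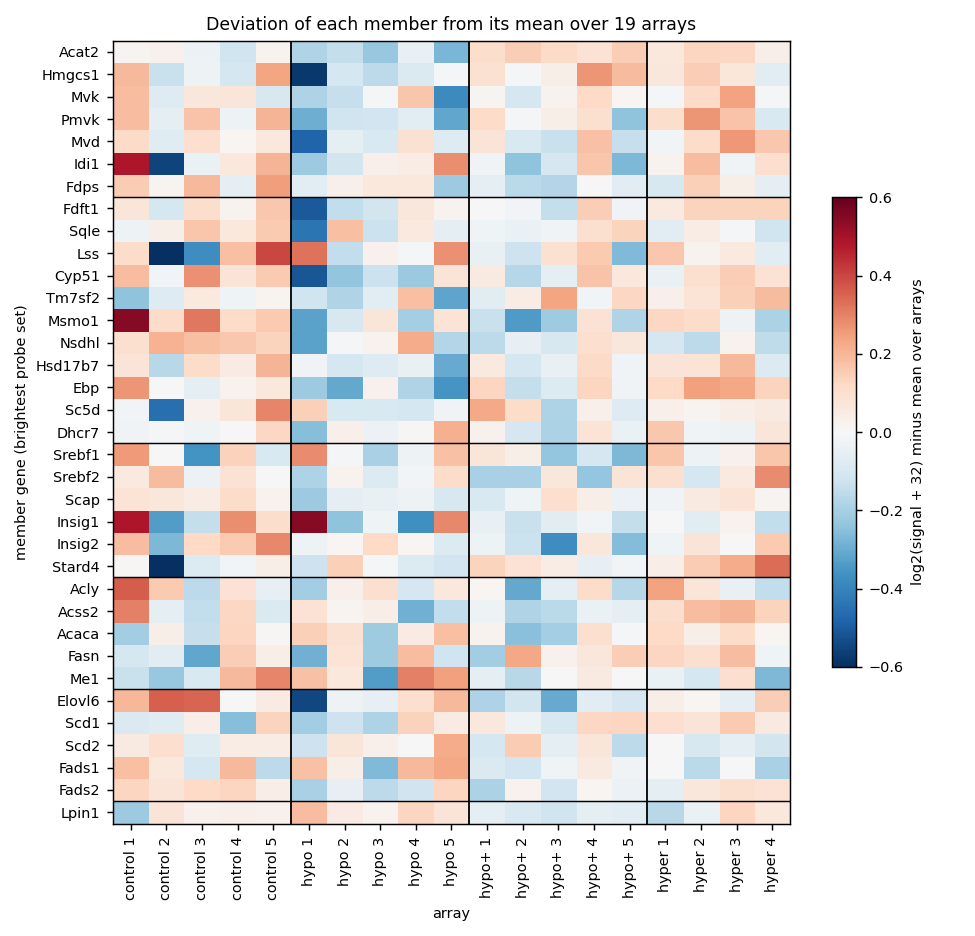
Deviation of each member gene (rows, brightest probe set, ordered by role with lines between the roles) from its own mean over the 19 arrays, in log2(signal + 32), with the arrays as columns and lines between the 4 groups. Blue cells gather in replicate 1 of hypo among the cholesterol enzymes of the upper rows, and the Acat2 row is blue on every hypo array and red on every hypo+ and hyper array.

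In hyper against control, the comparison of hormone excess with normal supply, no member probe set passed, while 79 of all probe sets did (0.175%), 0.104% higher and 0.0711% lower. At an unadjusted p under 0.05, 9 member probe sets differed (10.8%, against 10.5% of all): 5 were higher (against 6.64%) and 4 lower (against 3.9%). Groups did not overlap on 3 that were higher (against 1.68%) and 3 that were lower (against 1.59%), and 41 of the 83 had a value below 0 (49.4%, against 45.2%). The members' median was 0.007 and that of all probe sets 0.013. The members of smallest p were spread over the roles and directions. Nsdhl had −0.25 ± 0.09 (adjusted p = 0.277), with every hyper array below every control array. Stard4, which moves cholesterol between membranes, had 0.34 ± 0.12 on its brightest probe set (adjusted p = 0.291), with every hyper array above every control. The lowest hyper value there was 579.0 and the highest control 577.8. Its dimmer probe sets had overlapping arrays, with means of 470.9 and 284.8 in hyper and 441.1 and 287.1 in controls. A probe set of Fads1, the delta desaturase of long fatty acids, had 0.31 ± 0.11 (adjusted p = 0.293), and its brighter probe set −0.12.

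Acss2, which makes acetyl-CoA from acetate, had the highest member value in hyper against control, 0.66 ± 0.24 on its dimmer present probe set (adjusted p = 0.319). The means were 221.3 in hyper and 135.6 in controls, the arrays overlapped, and the brighter probe set had 0.13. A second, dim probe set of Msmo1 that was called absent had 0.36 ± 0.11 (adjusted p = 0.2), opposite in sign to the −0.25 of the bright one.

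Hormone given after goitrogen, hypo+ against hypo, moved 1421 of all probe sets past the threshold (3.16%) and 2 of the 83 member probe sets (2.41%), 1 higher (against 2.03% of all) and 1 lower (against 1.13%). At an unadjusted p under 0.05, 11 were higher (against 9.59%) and 5 lower (against 7.45%), 16 in all (19.3%, against 17%). Groups did not overlap on 2 that were higher (against 3.33%) and 1 that was lower (against 1.77%), and 36 had a value below 0 (43.4%, against 49.7%). Acat2, the thiolase that joins acetyl-CoA units in the opening step of the pathway, was the member of smallest p. It read 4173.1, 4292.4, 4041.4, 4601.8 and 3910.3 in hypo and 5097.2, 5252.2, 5138.2, 5041.6 and 5262.2 in hypo+. Every hypo+ array lay above every hypo array by a margin larger than the spread within hypo+. The means were 4203.8 ± 264.5 (SD, n = 5) in hypo and 5158.3 ± 96.6 (SD, n = 5) in hypo+, a log2 change of 0.30 ± 0.05 (limma adjusted p = 0.00385). The controls read 4792.0, 4830.1, 4630.5, 4362.2 and 4806.7, between the other groups, with the lowest control below the highest hypo array.

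The rise of Acat2 was small in size, 1.23-fold, and was seen against a narrow spread: the within-group SD of this probe set was 0.06 on the log2 scale, where the median over present member probe sets was 0.15 and over all present probe sets 0.19. It still passed when any single array was left out, with changes of 0.27 to 0.33, but not when arrays were centred on their medians (0.22, adjusted p = 0.334). Another probe set of the gene, which also lists Acat3, had 0.03 in hypo+ against hypo, and −0.21 in hypo against control where the first had −0.16. The mean of both probe sets had 0.16 (adjusted p = 0.109). Against control, Acat2 had 0.14 in hypo+ and 0.11 in hyper. Every hypo+ and hyper array lay above every control array, and neither value passed (adjusted p = 0.129 and 0.471). The probe set that also lists Acat3 went the other way. Its means were 2252.6 in hypo+ and 2376.2 in hyper, below the 2562.1 of controls, with overlapping arrays.

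**Figure D4:**
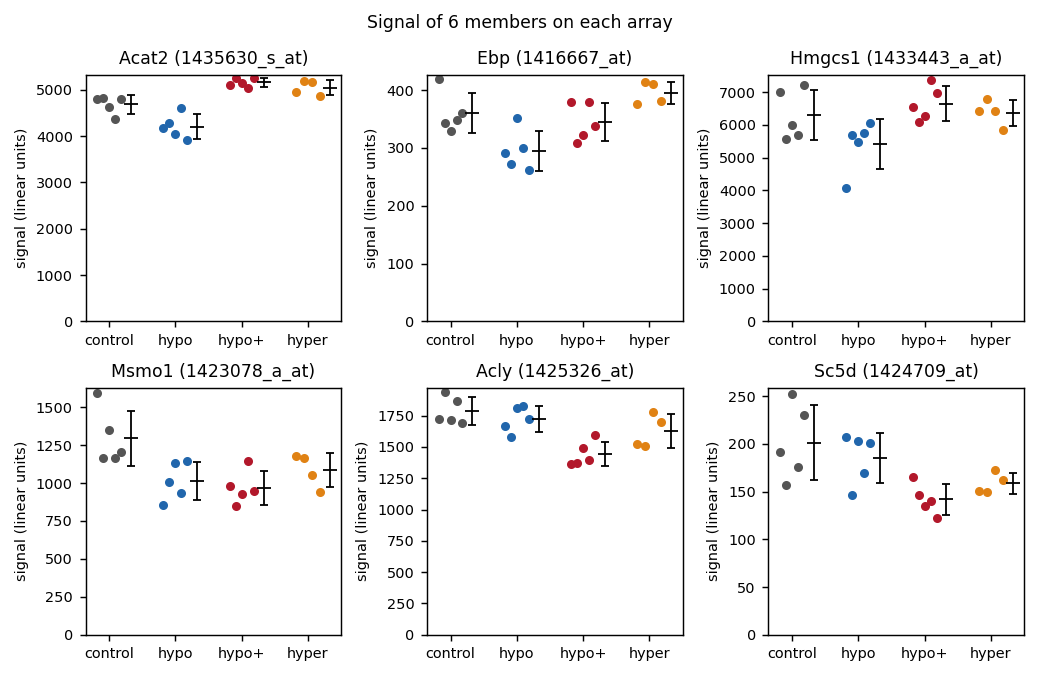
Signal on each array (points, linear vertical axis from 0) of 6 member probe sets in the 4 groups (horizontal axis), with the group mean and SD in black beside the points. For Acat2 every hypo+ and hyper point lies above every hypo point, with means of 4203.8 in hypo, 5158.3 in hypo+ and 5045.7 in hyper.

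Acly splits citrate into the acetyl-CoA that feeds both pathways. The probe set of Acly that passed read 1670.3, 1577.8, 1808.2, 1825.2 and 1721.7 in hypo and 1365.5, 1367.8, 1491.8, 1397.7 and 1595.7 in hypo+. The groups overlapped at 1 array, replicate 5 of hypo+, which lay above the lowest hypo array. The log2 change was −0.25 ± 0.06 (adjusted p = 0.0415). Without any 1 of replicates 1, 3, 4 or 5 of hypo or 1, 2, 3 or 4 of hypo+ the adjusted p was 0.0634 to 0.0959, with changes of −0.26 to −0.23. The other present probe sets of Acly had −0.06 and 0.03.

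Members of the next smallest p did not pass. Fads1 had 0.34 ± 0.10 on its dimmer probe set (adjusted p = 0.0791), and −0.11 on the brighter one. Scd2, a desaturase of the brain that makes oleic acid, had −0.21 ± 0.07 on its middle probe set (adjusted p = 0.0973). Hmgcs1 read 6533.9, 6073.7, 6274.4, 7368.6 and 6980.5 in hypo+, and every one of these arrays lay above every hypo array. Its log2 change was 0.30 ± 0.10 (adjusted p = 0.108). By role, the isoprenoid steps had a median of 0.171 in hypo+ against hypo, with 12 of 16 probe sets above 0, squalene to cholesterol 0.054, fatty acid synthesis 0.009, and elongation and desaturation −0.026.

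The summed oligodendrocyte lineage markers, all 7 called present and none at 0, lay between 2417 and 2754 in hypo+ and between 1966 and 2386 in hypo, with no overlap. The striatum and ganglionic eminence markers, 5 of 6 called present and none at 0, lay between 4331 and 5933 in hypo+ and between 2590 and 4504 in hypo. Of their 12 probe sets 10 lay above 0, with a median of 0.439. Past the threshold 4 of the 12 were higher, against 2.03% of all probe sets. All 18 probe sets of the cerebral cortex markers lay below 0 in hypo+ against hypo, with a median of −0.329, and Eomes, a marker of cortical progenitors, fell from 1868.0 to 1141.8 (−0.67 ± 0.17, adjusted p = 0.0381). In hyper against hypo the medians were 0.19 for the striatum and ganglionic eminence markers, with 10 of 12 above 0, −0.033 for the oligodendrocyte markers and 0.0 for the cortex markers. The part of these lists in the Acat2 and Acly differences was not tested. Without both arrays that carried Y transcripts, Acat2 passed in hypo+ against hypo with a change of 0.30 and Acly, at −0.23, did not (adjusted p = 0.0921).

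Among genes of the wider pathway, Abca1 changed in the opposite direction to Acat2 in hypo+ against hypo. Abca1 exports cholesterol from cells and is a target of the sterol-sensing LXR receptors. Its bright probe set fell from 395.9 ± 93.2 (SD, n = 5) to 248.5 ± 31.9 (SD, n = 5), a log2 change of −0.59 ± 0.15 (adjusted p = 0.0425). A second Abca1 probe set fell from 183.2 ± 34.9 to 101.9 ± 12.5 (−0.67 ± 0.15, adjusted p = 0.0228). On both, every hypo+ array lay below every hypo array, since the highest hypo+ values were 277.5 and 120.0 and the lowest hypo values 285.0 and 127.1. The other genes of the LXR and efflux list did not pass in this comparison. Lpin2, a phosphatidate phosphatase related to Lpin1, rose from 144.8 to 215.4 (0.49 ± 0.12, adjusted p = 0.0342), whereas both Lpin1 probe sets missed the threshold at −0.17 and 0.06.

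In hyper against hypo, the comparison between the intended ends of hormone supply, more members were higher than lower. Hypo had goitrogen and hyper had none, so injected hormone and goitrogen cannot be told apart in this comparison. Of all probe sets 566 passed (1.26%), and of the 83 member probe sets 2 did (2.41%), both higher, where 1.07% of all probe sets were higher and 0.189% lower. Unadjusted, 20 member probe sets of 17 genes were higher (24.1%, against 11.2% of all) and 0 were lower (against 4.04%), where 15.3% of all differed. Groups did not overlap on 6 that were higher (7.23%, against 4.81%) and 0 that were lower (against 1.56%), and 23 had a value below 0 (27.7%, against 42.2%). The members' median was 0.1 and that of all probe sets 0.024. Over present probe sets alone 16 were higher (22.2%, against 15.2%) and 0 lower (against 3.68%), and the medians were 0.116 and 0.078. Over those with a mean signal of at least 100, 15 were higher (22.4%, against 17.3%), so the excess was smaller beside probe sets of like brightness. This comparison and hypo+ against hypo use the same hypo arrays as hypo against control, so the values do not add separate evidence about hypo.

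Acat2 passed here too. The hyper arrays read 4960.4, 5187.0, 5172.1 and 4863.4, all above every hypo array. The mean was 5045.7 ± 159.7 (SD, n = 4) and the log2 change 0.26 ± 0.05 (adjusted p = 0.0181), and with median centring the change did not pass (0.19, adjusted p = 0.597). Without any 1 of replicates 1, 2 or 3 of hyper the adjusted p was 0.0577 to 0.0604, and the change 0.25 to 0.27.

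Ebp read 376.5, 413.5, 409.8 and 380.8 in hyper and 290.8, 271.9, 351.0, 300.1 and 262.2 in hypo. Every hyper array lay above every hypo array. The log2 change was 0.39 ± 0.08 (adjusted p = 0.0288), from a mean of 295.2 ± 34.6 (SD, n = 5) to 395.1 ± 19.2 (SD, n = 4). The controls of Ebp read 419.0, 343.3, 328.8, 348.9 and 361.2 and the hypo+ arrays 379.0, 307.8, 323.0, 379.1 and 337.9, which overlapped with each other. In hypo+ against hypo its value was 0.21 and did not pass. Without any 1 of replicates 1, 2 or 5 of hypo or 1, 2 or 3 of hyper the adjusted p of Ebp in hyper against hypo was 0.0509 to 0.0832, with changes of 0.35 to 0.41.

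The members of next smallest p in hyper against hypo were Pmvk at 0.29 ± 0.09 (adjusted p = 0.109) and the dimmer Fads1 probe set at 0.34 ± 0.11 (adjusted p = 0.128). Stard4 followed at 0.28 ± 0.10 (adjusted p = 0.158), on a dimmer probe set than the one that was higher in hyper against control. By role the medians were 0.175 for the isoprenoid steps, with 15 of 16 probe sets above 0, 0.09 for squalene to cholesterol, 0.116 for the SREBP regulators and Stard4, 0.011 for fatty acid synthesis and 0.1 for elongation and desaturation. Centring each array on its median signal left fewer members higher at an unadjusted p under 0.05, 4 (4.82%, against 5.18% of all), with 2 lower (2.41%, against 6.12%). The members' median was then 0.022 and that of all probe sets −0.054. With quantile normalization 11 were higher (13.3%, against 7.15%) and 7 lower (8.43%, against 7.2%), so the absence of lower members depended on the scaling. In hypo against control, 11 were lower with median centring (13.3%, against 4.68%) and 14 with quantile normalization (16.9%, against 3.98%), and 0 were higher with either. Elovl1, an elongase of saturated fatty acids outside the 35 members, rose in hyper against hypo from 191.9 to 262.1 on 1 probe set (0.39 ± 0.09, adjusted p = 0.0363).

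In hypo+ against control, which asks whether hormone after goitrogen brought expression back to the level of controls, 1400 of all probe sets passed (3.11%) and 3 member probe sets did (3.61%), all lower, where 1.9% of all probe sets were lower and 1.21% higher. At an unadjusted p under 0.05, 14 were lower (16.9%, against 9.5%) and 3 higher (against 7.34%), 17 in all (20.5%, against 16.8%). Groups did not overlap on 6 that were lower (7.23%, against 2.54%) and 1 that was higher (against 1.53%), and 57 had a value below 0 (68.7%, against 52.7%). The genes that passed act in different steps. Msmo1 read 980.9, 846.7, 924.7, 1145.7 and 947.0 in hypo+, all below every control array. Its mean fell from 1296.1 ± 180.8 to 969.0 ± 110.4 (SD, n = 5 each), a log2 change of −0.40 ± 0.10 (adjusted p = 0.0407). The hypo+ and hypo values of Msmo1 overlapped, with a difference of −0.06. Leaving out any 1 of 9 arrays took the adjusted p of Msmo1 to 0.0523 to 0.103, with changes of −0.43 to −0.33: replicates 1, 3 and 5 of control, 2 of hypo, 1, 2, 3 and 5 of hypo+ and 3 of hyper.

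Acly read 1723.7, 1941.6, 1711.9, 1865.4 and 1690.6 in controls on the probe set that passed, and every hypo+ array lay below these. The mean fell from 1786.6 ± 110.7 to 1443.7 ± 99.3 (SD, n = 5 each), a log2 change of −0.30 ± 0.06 (adjusted p = 0.0166). Leaving out single arrays left Acly past the threshold in this comparison, but with quantile normalization it did not pass (−0.25, adjusted p = 0.108). Nor did it with a pseudocount of 1 (adjusted p = 0.0536) or with only the groups compared (adjusted p = 0.0519). The mean of the Acly probe sets had −0.05 (adjusted p = 0.758). Its brightest probe set read 4485.9, 3884.4, 3108.3, 3697.6 and 3352.5 in controls and 3498.0, 2801.7, 3350.8, 3758.4 and 3085.0 in hypo+. These groups overlapped, and the change was −0.16. Another present probe set of Acly had 0.12, and deviations of Acly probe sets from their group means correlated between −0.50 and 0.71.

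Sc5d, the sterol desaturase that precedes Dhcr7, read 191.9, 156.7, 252.3, 175.5 and 230.3 in controls and 165.6, 146.6, 134.5, 140.6 and 121.9 in hypo+ on the probe set that passed. The lowest control lay below the highest hypo+ array. The log2 change was −0.41 ± 0.11 (adjusted p = 0.043). The 2 brighter probe sets of Sc5d had 0.04 and −0.04, so the lower value was seen on the dimmest of 3. Leaving out any 1 of 11 arrays took its adjusted p to 0.0504 to 0.116, with changes of −0.42 to −0.34: replicates 1, 3 and 5 of control, 2, 3, 4 and 5 of hypo+ and all 4 of hyper.

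Elovl6, which lengthens palmitic acid, had −0.35 ± 0.10 (adjusted p = 0.0618), with every hypo+ array below every control, and −0.34 on its brightest probe set. It passed when replicate 4 of control (adjusted p = 0.0342) or replicate 1 or 5 of hypo (0.0433 and 0.0444) was left out. Lss, which closes the sterol ring, had −0.32 ± 0.10 on 1 probe set (adjusted p = 0.0841) and 0.05 on the brightest. The members' median was −0.062, against −0.008 for all probe sets. Without both arrays that carried Y transcripts, 2 member probe sets passed, and Msmo1 had −0.41 (adjusted p = 0.0535).

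The difference between both hormone responses, hypo+ minus hypo against hyper minus control, asks whether goitrogen changed how these genes answer to hormone. No member probe set passed, and 6 of all probe sets did (0.0133%), 0.00222% higher and 0.0111% lower. At an unadjusted p under 0.05, 6 member probe sets were higher (7.23%, against 3.28% of all) and 0 were lower (against 3.22%), where 6.49% of all differed, and 36 had a value below 0 (43.4%, against 53.7%). Those of smallest p were Hmgcs1 at 0.33 ± 0.12 (adjusted p = 0.623), Acat2 at 0.19 ± 0.07 (adjusted p = 0.643), Lss at 0.32 ± 0.13 on a probe set called absent (adjusted p = 0.69), Nsdhl at 0.28 ± 0.12 (adjusted p = 0.705) and Cyp51 at 0.28 ± 0.13 (adjusted p = 0.768). Klf9 did pass here (−1.65 ± 0.18, adjusted p = 0.000829). The doses differed between the arms, since hyper received 100 µg T4 and hypo+ 25 µg.

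The regulators of the pathway did not pass in any comparison. Insig1, itself a target of SREBP, read 557.3, 301.6, 349.4, 478.2 and 420.5 in controls, 581.5, 324.1, 380.6, 294.0 and 482.3 in hypo, 375.7, 351.5, 370.1, 383.5 and 348.8 in hypo+ and 389.4, 370.2, 395.5 and 347.5 in hyper. All groups overlapped, and the arrays without hormone injection were spread more widely than those with it, which was not tested. Replicate 1 of hypo, lowest for Cyp51, Sqle and Hmgcs1, was the highest of all 19 for Insig1. Srebf2, the SREBP gene most tied to cholesterol synthesis, had −0.09 and −0.16 in hypo against control, Srebf1, tied to fatty acids, 0.06, and Scap −0.15 on its bright probe set. Insig2 had −0.32 on 1 of its 3 probe sets.

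Nor did fatty acid synthase, Fasn, differ beyond its spread. It read 2060.0, 2122.5, 1779.5, 2455.6 and 2269.3 in controls, 1805.8, 2345.1, 1905.5, 2527.3 and 2038.9 in hypo, 1913.9, 2606.6, 2255.1, 2326.1 and 2456.9 in hypo+ and 2424.3, 2373.7, 2525.9 and 2178.9 in hyper. The groups overlapped, and the value in hyper against control was 0.16. Acaca, acetyl-CoA carboxylase, had 0.11 in that comparison on its bright probe set, and Me1, malic enzyme, which is a thyroid hormone target in liver, −0.09 and 0.01. Scd1 had 0.15 and 0.44 in hyper against control, neither past the threshold.

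Scd2 read 7455.6, 7702.1, 6817.7, 7391.9 and 7405.2 in controls, 6585.5, 7541.9, 7324.3, 7154.3 and 8379.3 in hypo, 6668.6, 7972.6, 6908.1, 7545.3 and 6425.5 in hypo+ and 7163.8, 6715.2, 6882.9 and 6637.3 in hyper on its brightest probe set. The groups overlapped, although 2 of the 4 hyper arrays lay below the lowest control, and the value in hyper against control was −0.10. Fads2, the desaturase that acts before Fads1, had −0.05 in hyper against control and −0.18 in hypo against control on its brightest probe set.

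The cholesterol enzymes varied together between fetuses of the same group. Over 18 genes and 153 pairs, the Pearson correlation of deviations from the group means had a median of 0.25 and ran from −0.52 to 0.88, where the median of their correlations with all present probe sets was 0.05. Fdft1 with Mvd gave 0.88, Fdft1 with Hmgcs1 0.82 and Cyp51 with Fdft1 0.78. Acat2 lay outside that cluster, with −0.28 against Cyp51, 0.17 against Hmgcs1 and 0.54 against Fdps. Without replicate 1 of hypo the median over pairs was 0.30, and without it and replicate 2 of control it was 0.2. The 10 fatty acid enzymes had a median of 0.15 over 45 pairs. These correlations describe 19 arrays whose hybridisation and RNA quality the genes share.

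**Figure D5:**
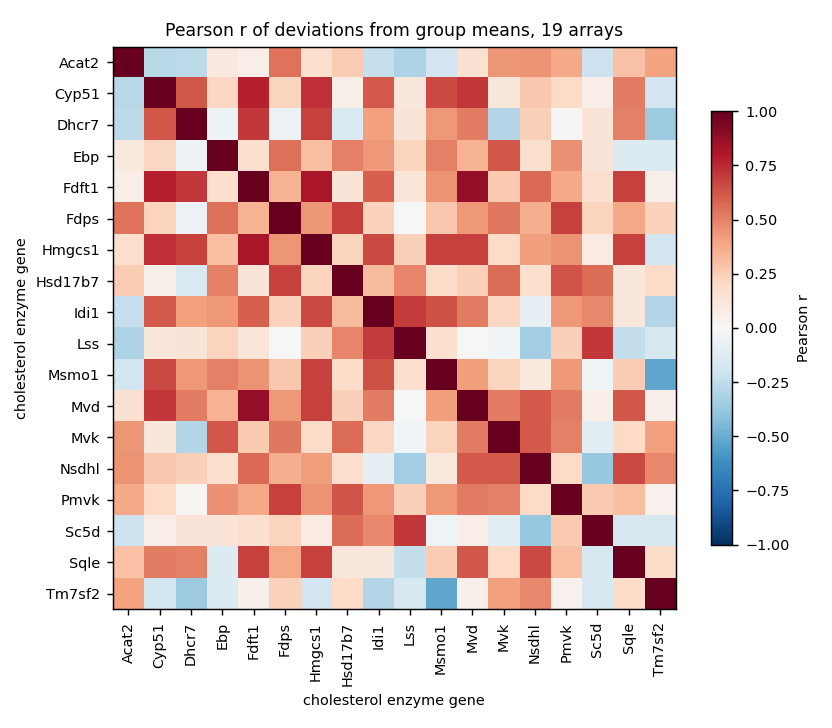
Pearson r between the deviations of 18 cholesterol enzyme genes (both axes) from their group means over 19 arrays, from blue (−1) to red (1). Genes are in alphabetical order. Pairs among Fdft1, Hmgcs1, Cyp51, Mvd and Idi1 are red, with values of 0.52 to 0.88, and Tm7sf2 and Msmo1 have the lowest value, −0.52.

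Probe sets of 1 gene did not always move together. Of 23 members with several present probe sets, 6 had at least 1 pair whose deviations from the group means correlated below 0 and 7 had every pair above 0.5. Hmgcs1 had correlations of 0.29 to 0.85 among its 5 probe sets and Insig2 0.63 to 0.83 among its 3, whereas Fads1 had −0.09 and Scd1 −0.27. In hypo against control all 5 Hmgcs1 probe sets had values below 0, from −0.28 to −0.04, and so did all 3 of Cyp51.

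Among other genes of lipid metabolism, fatty acid oxidation had 0 of 17 probe sets past the threshold in each of the 6 comparisons. Of all probe sets at most 3.16% passed in any comparison, so a count of 0 says little. The fatty acid and lipid genes outside the members had 1 of 46 probe sets in hypo+ against hypo, Lpin2 (against 3.16% of all). In hyper against hypo they had 1 of 46, Elovl1 (against 1.26%). The LXR and efflux list had 2 of 12 in hypo+ against hypo, both of Abca1 (against 3.16%). The authors' deposited table, which holds permutation p-values of its own, had 0 member probe sets below 0.05 after adjustment in hypo against control, 4 in hypo+ against control, 0 in hyper against control, 2 in hypo+ against hypo and 2 in hyper against hypo. These were the probe sets named above, and in hypo+ against control also the absent-called probe set of Msmo1, with a fold of 1.53 in the opposite direction to the bright one (−1.33).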

How the data were processed

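RNA from the cerebral cortex of 19 mouse fetuses in 4 groups was measured on Affymetrix arrays. The labels' protocols name a rat array, but the probe sets and symbols in the deposited tables are those of mouse. The authors deposited 1 intensity for each probe set and array, linear in scale and already summarised and normalized. RMA and MAS5 are named by the submitters' processing notes; the sources used here do not say which of them made the values, or in what version. Per the file headers, a further table from the authors gives signed folds (a score), permutation p-values before and after adjustment, and a call of present or absent. In hypo against control, the log2 of the deposited folds lay within 0.00719 of differences between group means of log2 signal without a pseudocount. The changes reported here include the pseudocount and can differ more from the deposited folds. For the Sc5d probe set that passed in hypo+ against control, the deposited fold was −1.41, against a 1.33-fold decrease here. Per the labels' protocols, 1 of the study's arrays was removed for quality.

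Of 45101 probe sets 64 controls were left out. All 19 arrays entered 1 fit of group means of log2(value + 32) by lmFit and eBayes of limma 3.58.1 under R 4.3.3, leaving 15 residual degrees of freedom; p-values are two-sided. The added 32 understates changes of dim probe sets. Tables were handled with Python 3.11.15 and pandas 2.3.3, and the fit was tested on simulated data. The probe set was the unit because members are defined by probe set; 16 member probe sets list several symbols. Each member is described by its brightest probe set that lists its symbol alone, except Hmgcs1, for which that rule gave a dim probe set (mean 96.6) and the brightest of all was used, a choice made after its values were seen. In each comparison all member probe sets past the threshold are named, and with fewer than 5 also the 5 genes of smallest p. Other pathway and hormone reporter genes were to be named where they passed; Sema3c, a reporter that rose in hyper against control (1.35 ± 0.10, adjusted p = 1.86e-06), is not discussed further. The members and all lists were chosen with earlier results of these data known. Counts and medians over members are descriptions with no test. Alternatives changed the normalization, pseudocount, filter, probe set rule, array weights, prior, groups fitted and arrays used. Leaving out replicate 1 of hypo with replicate 2 of control was added after seeing the data. A list of further cholesterol genes is not reported here.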

Additional observations from a re-analysis of the deposited data

Results flagged for a closer look

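Hmgcs1 was flagged because 1 array lay far from the others of its group: on its brightest probe set replicate 1 of hypo read 4083.3, where the other 4 hypo arrays read 5479.2 to 6065.9. The gap to the nearest array was 0.74 of the range of the group. Of 52 groups tested over 13 probe sets this was the 1 that met the criterion, and chance alone marks about 1 group in 20. The same array read lowest of all 19 in 36.1% of the cholesterol enzyme probe sets.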

How the results depend on the processing

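Of 1013 values of named probe sets recomputed under other settings 929 kept their direction and side of the threshold, and 0 reversed. Of 624 counts and medians 506 stayed within 1.5 times (counts) or within 0.053, the within-group SD between arrays of the members' median deviation (medians). Medians near 0 changed sign under some settings, in hyper against control, in hypo+ against hypo and in the difference between hormone responses. Signal over background limits dim probe sets most, and 11 member probe sets were called absent. In hypo against control, where no probe set passed (3689 had an unadjusted p under 0.05), 7 passed with a pseudocount of 100, 50 in the authors' deposited table and 4 without the 2 arrays lowest in members (replicate 1 of hypo and replicate 2 of control, chosen after seeing the data). In hyper against control the 79 probe sets became 178 with quantile normalization, 31 with a pseudocount of 1, 9 with the brightest probe set and 8 with the mean of probe sets per gene, 175 with array weights, 6 with only the groups compared, 46 without both arrays with Y-linked signal, 50 without the 2 lowest arrays and 248 in the authors' table, and the members' median was −0.096 with median centring. In hypo+ against control that median was −0.159 with median centring; the 1400 probe sets became 162 and 121 with the brightest probe set and the mean per gene and 554 with only the groups compared; and the 3 member calls became 0 with a pseudocount of 1, either rule per gene or only the groups compared, and 5 with array weights or without the 2 lowest arrays. In hypo+ against hypo the 1421 probe sets became 2261 with quantile normalization, 369 and 265 with the brightest and the mean per gene, and 2181 in the authors' table. Its 2 member calls became 0 with median centring (median −0.049) and the mean per gene, and 1 with a pseudocount of 1, present probe sets, the brightest per gene, no _x_at and _s_at probe sets, array weights, a robust prior with trend, only the groups compared, without both Y-linked arrays and without the 2 lowest. In hyper against hypo the 566 probe sets became 172 with median centring, 270 with a pseudocount of 1, 251 and 178 per gene, 1404 with array weights, 216 with only the groups compared and 967 in the authors' table. Its 2 member calls became 1 with quantile normalization (median 0.034), present probe sets, the mean per gene, no _x_at and _s_at probe sets, a robust prior or without the 2 lowest arrays, and 0 with median centring (median 0.022), a pseudocount of 1 or only the groups compared. The 6 probe sets of the difference between hormone responses became 3 with median centring, a pseudocount of 1 or without both Y-linked arrays, and 1 under either rule per gene. Apart from the settings that use fewer probe sets or arrays, the cause was not tested. Leaving out single arrays gave 0 to 8 probe sets in hypo against control (0 members, median −0.128 to −0.048), 14 to 391 in hyper against control (0 members, −0.037 to 0.02), 605 to 1884 in hypo+ against control (1 to 5 members, −0.085 to −0.044), 753 to 1692 in hypo+ against hypo (1 to 3 members, −0.002 to 0.041), 94 to 681 in hyper against hypo (0 to 2 members, 0.077 to 0.125) and 4 to 23 for the difference (0 members, −0.011 to 0.039). Deviations of same-numbered arrays had a median correlation of −0.014 (27 pairs, −0.369 to 0.451, 8 above 0.1), against 0 for other pairs. Whether some same-numbered arrays shared a dam or a batch cannot be told from these values. With the replicate number as a block, 0 probe sets passed in hypo against control, 21 in hyper against control, 988 in hypo+ against control (2 members), 1146 in hypo+ against hypo (1 member), 247 in hyper against hypo (0 members) and 6 for the difference.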
